A study of Homo sapiens with 63 samples.

Results

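The 10 kinesins described here, KIF20A, KIF20B, KIF23, KIF11, KIF2C, KIF4A, KIF14, KIF15, KIF18A and KIFC1, are motor proteins of cell division. They were chosen by name, with earlier results of these data known. Every array probe whose platform annotation carries 1 of these symbols was taken, which gave 13 of the 47217 probes on the array. Of these, 12 probes passed the filter on low values, which asked for a detection p below 0.05 on 4 or more arrays, and at least 1 probe of every kinesin did. RNA came from 9 human small cell lung cancer (SCLC) cell lines, of which 3 carry DMS names (DMS53, DMS114 and DMS153) and 6 carry H names (H69, H128, H146, H187, H209 and H526). Each line gave 1 Illumina HT-12 v4 array for each of 7 conditions, 63 arrays altogether. Cells received vehicle (Con), the PARP inhibitor veliparib at 5 µmol/L (A5) or at the higher dose of 50 µmol/L (A50), or cisplatin without veliparib at a dose set for each line by its own IC50 (C+0). In C+5 and C+50 the same cisplatin dose was joined by 5 and 50 µmol/L veliparib, and Rad was a dose of 2 Gy of radiation. Cisplatin doses ran from 0.4 µM in H526 to 14.5 µM in H128. Exposure was 24 h in the study's methods and figure legend for these arrays. The sample labels give 48 to 72 h, the range that the methods state for the cytotoxicity assay, so the sources differ. The replicate is the cell line, each line is a model of its own tumour, and the profile of short tandem repeats of H128 did not match the published reference for that line. Counts of kinesins and of the gene lists below were therefore also computed without H128.

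Between 19124 and 22330 probes were detected on an array (median 20692), and no treatment moved this number beyond the spread of the lines (lowest p = 0.23, Rad, exact two-sided sign-flip permutation test, n = 9). Neuroendocrine genes typical of SCLC were measured, with a mean log2 signal per line between 7.50 and 10.9 over 9 genes in Con. Not every line had all 9 detected in Con: DDC and GRP were each detected in 6 of 9 lines. H128 and H526 had 7 of the 9 genes detected, and H69 and DMS114 had 8. Of 8 fibroblast genes, 6 were detected in DMS114 and between 0 and 3 in each other line. With C+50, limma called 0 of the 9 neuroendocrine genes (1 at an unadjusted p under 0.05) and 0 of the 8 fibroblast genes (also 0 unadjusted). Of 4 leucocyte genes, 1 rose. Over all probes, 9.1% were lower and 8.12% higher with C+50.

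Kinesins walk along microtubules or take them apart, using ATP. During mitosis several of them build the bipolar spindle, several move and align chromosomes, and several work at the spindle midzone and the midbody, where the daughter cells separate. In dividing cells, transcripts of many mitotic genes accumulate towards G2 and mitosis. A repressor complex that includes LIN54 binds the cell cycle genes homology region (CHR), often TTTGAA, in promoters of such genes, and the factor NF-Y binds the CCAAT box. In bulk RNA as measured here, fewer cells in division and less of a transcript per cell cannot be told apart.

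The promoters of all 10 kinesins were found in RefSeq (build GRCh38.p14), as windows from 250 bases before to 50 after the start that RefSeq gives for each. For KIFC1 this start lies inside the bounds of the gene given below, and for the other 9 kinesins it is the end of the gene where transcription begins. TTTGAA, searched on both strands, was found in 8 of the 10 windows and in 15.2% of all 35116 windows of the same length. CCAAT, searched in the same way, was found in 8 of the 10 and in 34.6% of all windows, and both motifs were found in 7 of the 10 and in 5.9% of all. No TTTGAA was found in the windows of KIF20A and KIF2C, and no CCAAT in those of KIF15 and KIF2C. The motifs do not overlap each other. A match is a description of letters and not a measured binding site. Below, 4 promoters are shown from 150 bases before to 30 after the start, because they are those of the kinesin that fell most (KIF20A), of 2 that were lower with C+50 in all 9 lines (KIF11 and KIF18A) and of 1 that did not pass the test (KIFC1). Capitals mark TTTGAA and CCAAT, which read TTCAAA and ATTGG where they lie on the other strand.
KIF20A, chr5:138178962-138179141, plus strand: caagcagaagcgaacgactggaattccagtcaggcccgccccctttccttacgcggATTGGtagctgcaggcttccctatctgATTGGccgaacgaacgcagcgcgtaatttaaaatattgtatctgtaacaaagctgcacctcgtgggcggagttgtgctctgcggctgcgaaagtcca
KIF11, chr10:92592980-92593159, plus strand: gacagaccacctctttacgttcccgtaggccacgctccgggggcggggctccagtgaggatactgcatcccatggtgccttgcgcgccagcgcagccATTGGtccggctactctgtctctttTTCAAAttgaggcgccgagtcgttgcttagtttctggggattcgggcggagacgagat
KIF18A, chr11:28108127-28108306, minus strand: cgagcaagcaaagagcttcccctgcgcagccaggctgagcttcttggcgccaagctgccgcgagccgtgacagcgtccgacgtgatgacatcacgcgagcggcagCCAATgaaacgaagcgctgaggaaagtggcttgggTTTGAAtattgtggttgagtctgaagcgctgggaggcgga
KIFC1, chr6:33391673-33391852, plus strand: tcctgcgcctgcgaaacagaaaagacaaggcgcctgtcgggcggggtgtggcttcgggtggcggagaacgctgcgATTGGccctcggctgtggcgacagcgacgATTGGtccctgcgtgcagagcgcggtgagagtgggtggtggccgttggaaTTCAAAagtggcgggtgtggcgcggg
Motif positions varied among the kinesins, and their relation to the changes was not tested. TTTGAA began before the start in KIF11 (-28), KIF18A (-10), KIF23 (-55), KIF4A (-34) and KIF15 (-35), and after it in KIF14 (2), KIFC1 (5) and KIF20B (25 and 31), counted from the RefSeq start of each window. The window of KIF2C held neither motif, and other forms of the CHR were not searched for in any window.

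Levels are given as log2 of the quantile-normalized intensity without background correction, so percent changes below are changes of signal. KIF11, the motor that pushes the spindle poles apart (chr10:92593130-92655395, GRCh38), was read by the probes ILMN_1794539 and ILMN_2143155. KIF15 (chr3:44761794-44868687), which can help to keep the spindle bipolar, and KIFC1 (chr6:33391461-33409896), a minus-end motor that draws spindle poles together, had 1 probe each. KIF18A (chr11:28020619-28108156) damps the movements of chromosomes at the spindle equator. Its probe ILMN_2132161 was detected on 63 arrays, while its other probe, ILMN_1779153, was detected on 0 of 63 and was left out. KIF2C (chr1:44739837-44767767) depolymerises microtubules at centromeres, and KIF4A (chrX:70290104-70420886) is a chromosome-bound motor that also sets the length of midzone microtubules. KIF4B is a near-identical copy of KIF4A, so its RNA could add to the KIF4A signal. The midzone motors are KIF20A (chr5:138179112-138187723), which carries the Aurora B complex to the midzone, KIF23 (chr15:69414349-69448427), the motor of the centralspindlin complex, KIF14 (chr1:200551497-200620751), which binds PRC1 and citron kinase, and KIF20B (chr10:89701590-89774934), which acts late in cytokinesis. For KIF11 and KIF23 the brighter probe stands for the gene, and the other probe is given beside it where the calls differ.

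The line set the level of each kinesin more than the treatment did. Of the variance over 63 arrays, the line took between 57.9% (KIF20B) and 93.4% (KIF15), and the condition between 2.68% (KIF15) and 32.5% (KIF20B), against medians of 86.6% and 2.53% over all 30716 kept probes. KIF20B, KIF11 (18.8%) and KIF20A (16.6%) had the highest shares for the condition. KIF20A, averaged over the 7 conditions of a line, was highest in H187 (9.94 ± 0.15, SD) and lowest in DMS153 (8.33 ± 0.37), and the ranges of all lines next to each other in this order overlapped. KIF18A in H187 (8.46 ± 0.06) stood clear of H526 next to it (8.01 ± 0.11). KIF15 in DMS53 (7.33 ± 0.07) was clear of DMS153 (7.81 ± 0.10), and KIF14 in H526 (8.09 ± 0.11) was clear of DMS114 (8.68 ± 0.29). The lowest line therefore differed from gene to gene. DMS114 was the highest line for 4 of the 10 kinesins and DMS53 the lowest for 3, as was DMS153.

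**Figure D1:**
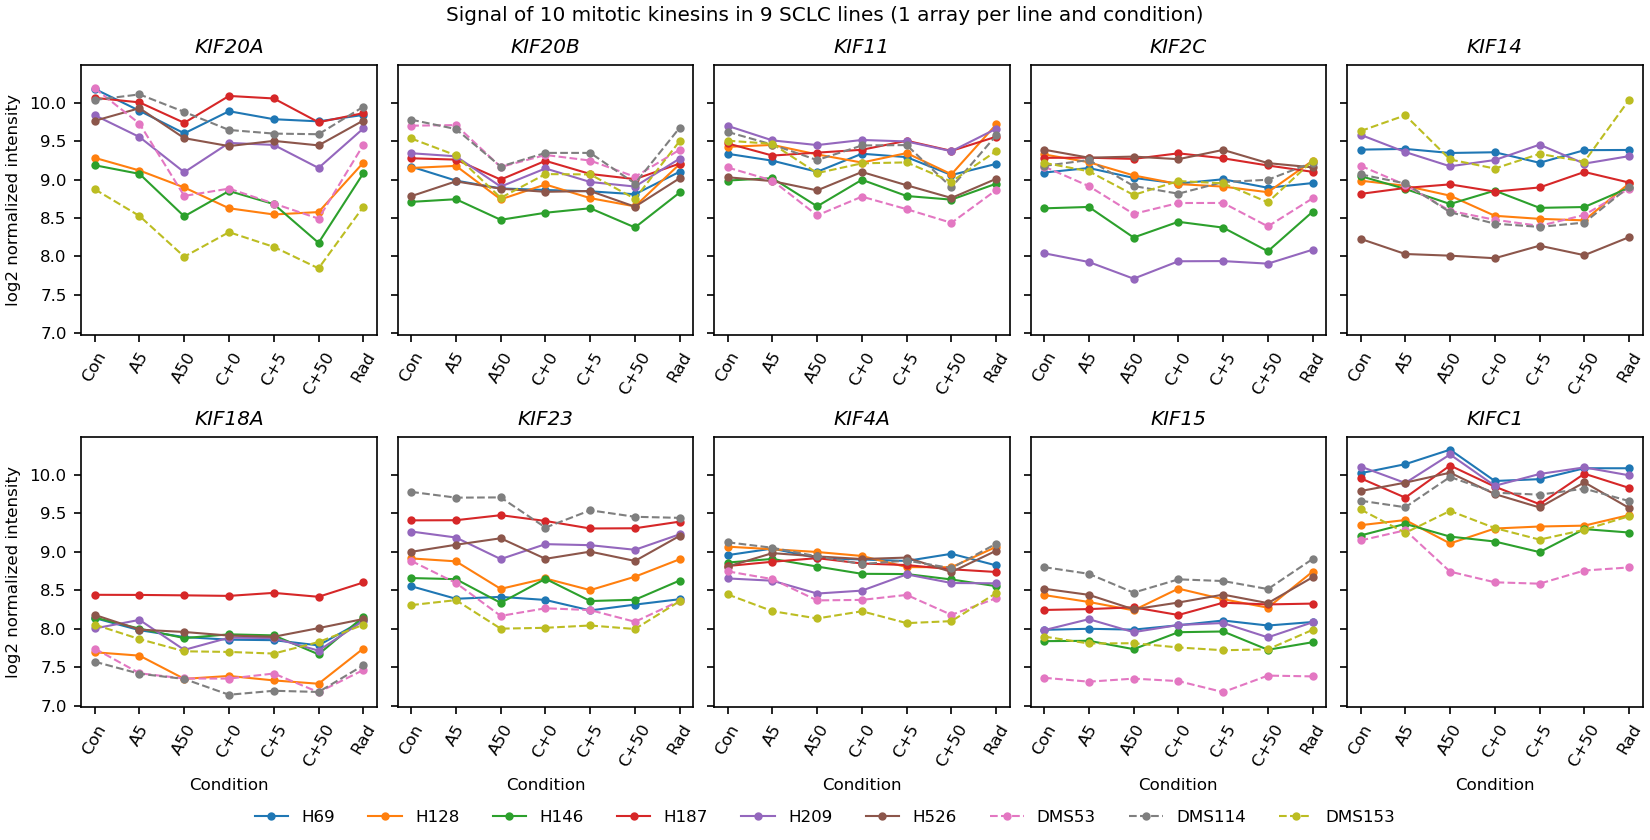
Log2 normalized intensity of each kinesin (y axis) in the 7 conditions (x axis), with 1 array per point and the 9 lines joined (H lines solid, DMS lines dashed). Lines lie apart at every condition, as for KIF2C with H209 lowest (7.94 on average), and most KIF20A and KIF20B traces dip at A50 and C+50.

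Treatments were compared with Con within the 9 lines by limma with the line as a block, and a change was called at a Benjamini-Hochberg adjusted p under 0.05 over 30716 probes. All 6 treated conditions were set against the same Con arrays, so their counts are not independent of each other. With C+50, 8 of the 10 kinesins fell and 0 rose, where 9.1% of all probes were called lower and 8.12% higher. The median change of the 10 was -0.32 on the log2 scale, against 0.0012 over all probes. All 4 midzone motors fell, as did all 3 motors of chromosomes and 1 of the 3 motors of the spindle poles.

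KIF20A ranged from 8.87 (DMS153) through a median of 9.84 to 10.19 (DMS53) in Con, and from 7.85 (DMS153) through 9.15 to 9.76 (H69) with C+50. The groups overlapped because the lines differ, but all 9 lines were lower with C+50, with changes from -1.69 (DMS53) to -0.32 (H187). The fitted change was -0.74 (SE 0.09, adjusted p = 2.3e-09), a level that fell by 40.0%, the deepest fall of the 10. KIF20B went from 8.71 to 9.78 (median 9.28) in Con to 8.38 to 9.04 (median 8.81) with C+50. It was lower in 9 of 9 lines, with a change of -0.48 (SE 0.05, adjusted p = 3.8e-11), and H146 was its lowest line in both conditions. KIF23 fell by 18.4% (-0.29, SE 0.05), and DMS53 moved most (-0.79). The other KIF23 probe was not detected in DMS53 with C+50 and so could not show this fall. KIF14, at 8.23 to 9.63 (median 9.07) in Con and 8.02 to 9.38 (median 8.64) with C+50, had a change of -0.32 (SE 0.07, adjusted p = 3.5e-04). It was lower in 8 lines and 0.29 higher in H187.

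KIF11 was between 8.99 and 9.70 (median 9.42) in Con and between 8.44 and 9.37 (median 8.97) with C+50. It was lower in all 9 lines, least in H187 (-0.10) and most in DMS114 (-0.72), and both probes fell (-0.39, SE 0.05, and -0.39, SE 0.05). KIF15 had a change of -0.09 (SE 0.04, adjusted p = 0.11), and KIFC1 one of -0.02 (SE 0.06, adjusted p = 0.89, 95% interval -0.15 to 0.10), so that a fall of KIFC1 as large as that of KIF11 lay outside its interval. KIFC1 ranged from 9.15 to 10.11 (median 9.66) in Con and from 8.76 to 10.10 (median 9.82) with C+50, and it was lower in 4 lines and higher in 5.

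Among the motors of chromosomes, KIF2C went from 8.04 to 9.39 (median 9.18) in Con to 7.91 to 9.21 (median 8.83) with C+50. It fell by 21.4% (-0.35, SE 0.05, adjusted p = 1.0e-06) and was lower in 9 of 9 lines. KIF18A went from 7.57 to 8.44 (median 8.05) to 7.17 to 8.41 (median 7.71). KIF18A fell by 20.1% (-0.32, SE 0.04, adjusted p = 1.7e-09), lower in 9 of 9 lines but by very little in H187 (-0.03). KIF4A changed least of the 8 called (-0.21, SE 0.05, adjusted p = 4.6e-04) and was lower in 8 lines.

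With A50, that is veliparib without cisplatin, 7 kinesins fell and 0 rose (6.22% of all probes lower, 5.45% higher), with a median change of -0.27. KIF20A ranged from 8.00 (DMS153) to 9.88 (DMS114) with a median of 9.09, and it was lower than Con in 9 of 9 lines (-0.59, SE 0.09, adjusted p = 9.3e-07). KIF20B (-0.38), KIF11 (-0.29), KIF14 (-0.28), KIF2C (-0.27), KIF18A (-0.26) and KIF23 (-0.23) also fell. KIF4A (-0.11, adjusted p = 0.12) and KIF15 (-0.11, adjusted p = 0.069) did not pass the test, and KIFC1 had a change of 0.06 (adjusted p = 0.69). When arrays were scaled to 1 median, KIF4A and KIF15 passed, which made 9 called, and KIFC1 turned to -0.07. KIF15 also passed without H187 and with the stricter filter. With A5, 0 kinesins were called by limma (0% of all probes in either direction). All 10 changes were below 0 (median -0.06) and 1, that of KIF18A (-0.12), had an unadjusted p under 0.05.

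Cisplatin alone (C+0) lowered 6 kinesins and raised 0 (0.921% of all probes lower, 0.339% higher), with a median change of -0.22. KIF20A fell by 27.6% (-0.47, SE 0.09), KIF14 changed by -0.34 (SE 0.07) and KIF18A by -0.27 (SE 0.04), and KIF20B, KIF23 and KIF2C changed by -0.23, -0.23 and -0.22. KIF23 and KIF2C were not called when DMS53, DMS114 or DMS153 was left out, which took the count to 4, and KIF2C also not without H128. KIF18A had the 4th lowest p of all 30716 probes in this comparison. The probes of KIF11 gave different calls: the brighter had a change of -0.14 (adjusted p = 0.18) and the other fell (-0.25, adjusted p = 0.0017). With C+5, 7 fell and 0 rose (1.12% lower, 0.54% higher), 4 of them when arrays were scaled to 1 median (KIF14, KIF18A, KIF20A and KIF20B). KIF11 (-0.18) was not called under 12 of 18 other settings, KIF2C (-0.20) under 9 and KIF23 (-0.27) under 2. Among single lines, leaving out H146, H209, H526, DMS53, DMS114 or DMS153 ended the call of KIF11, and leaving out H128, H146, DMS53, DMS114 or DMS153 that of KIF2C. The other KIF23 probe did not pass (-0.12, adjusted p = 0.12).

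**Figure D2:**
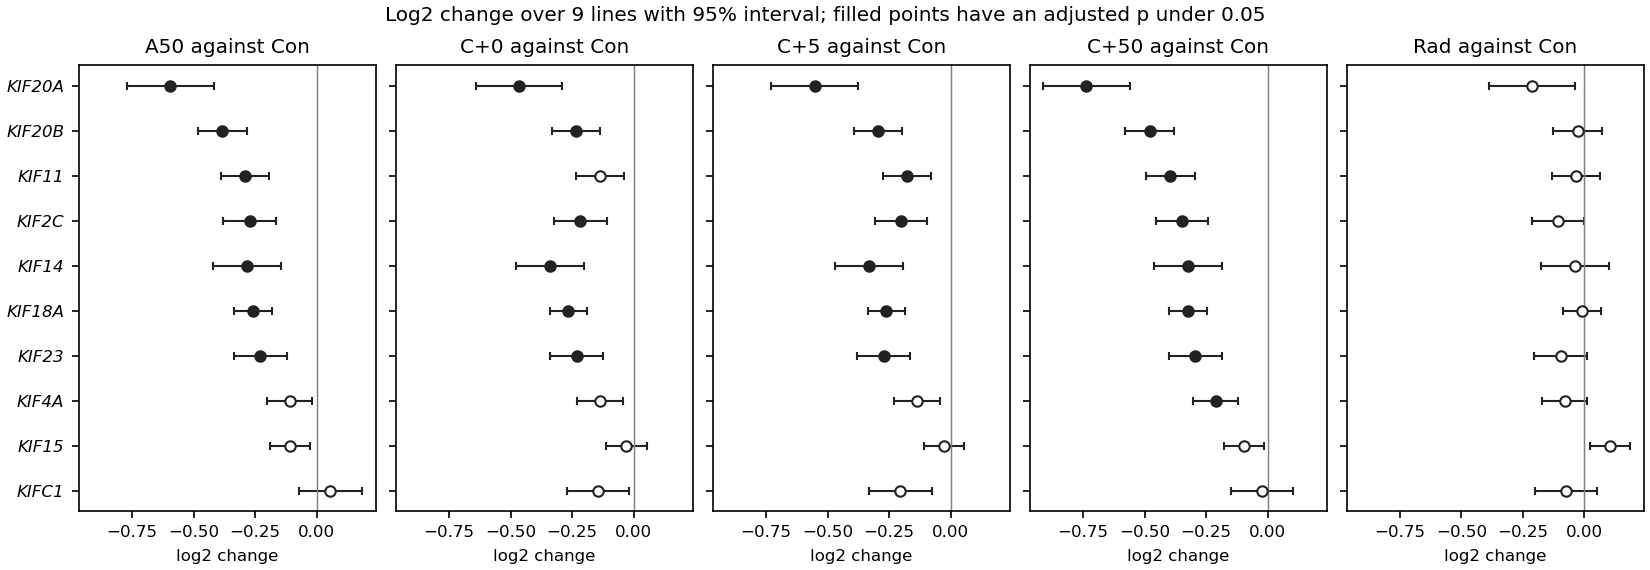
Log2 change of each kinesin against Con (x axis) for A50, C+0, C+5, C+50 and Rad, fitted over 9 lines, with 95% intervals. Filled points passed an adjusted p of 0.05: there are 7, 6, 7, 8 and 0 of them, and KIF20A lies farthest left in the first 4 panels.

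The doses of veliparib were then compared. A50 was lower than A5 in 6 kinesins and higher in 0 (3.98% of all probes lower, 3.28% higher). The differences ran from -0.43 (KIF20A) to 0.09 (KIFC1), and that of KIF20B (-0.35, adjusted p = 9.4e-07) had the lowest p. Adding veliparib at 50 µmol/L to cisplatin (C+50 minus C+0) lowered KIF20A (-0.27, adjusted p = 0.032), KIF11 (-0.26, adjusted p = 1.1e-04) and KIF20B (-0.24, adjusted p = 2.6e-04), 3 of 10 where 6.38% of all probes were lower and 5.35% higher. KIF20A was not called when H146, H187, H209 or DMS153 was left out, nor when arrays were scaled to 1 median. The other probe of KIF11 did not pass (-0.14, adjusted p = 0.052). For KIF14 (0.02, 95% interval -0.12 to 0.16) and KIF18A (-0.06, 95% interval -0.14 to 0.02) the intervals of this difference included 0. Adding 5 µmol/L (C+5 minus C+0) called 0 kinesins in limma, 0 of them also at an unadjusted p under 0.05 (0% of all probes). Adding cisplatin to 50 µmol/L veliparib (C+50 minus A50) also called 0 (0.244% of all probes lower), with 9 of 10 differences below 0, a median of -0.08 and 2 at an unadjusted p under 0.05. Adding cisplatin to 5 µmol/L (C+5 minus A5) lowered KIF20A (-0.39), KIF20B (-0.26) and KIF23 (-0.22), 3 of 10. Over all probes 0.283% were lower and 0.0944% higher. The other KIF23 probe did not pass in limma (-0.08, adjusted p = 0.52). The count for this comparison was 0 without H128, 1 without H146, DMS53, DMS114 or DMS153, 5 without H187, and 0 when arrays were scaled to 1 median.

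The change with C+50 lay above the sum of the separate changes with C+0 and A50 in all 10 kinesins (median departure 0.14). None of these departures passed the test in limma (lowest adjusted p = 0.28, 0.00977% of all probes called higher), and 4 had an unadjusted p under 0.05. The departures were 0.32 for KIF20A (95% interval 0.08 to 0.57), 0.30 for KIF14 and 0.20 for KIF18A. When arrays were scaled to 1 median, that of KIF14 passed.

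Radiation called 0 kinesins in either direction over the 9 lines (0.215% of all probes lower, 0.612% higher), with a median change of -0.06. Unadjusted, 3 had a p under 0.05: KIF20A (-0.21, adjusted p = 0.27), KIF2C (-0.11, adjusted p = 0.40) and KIF15 (0.10, adjusted p = 0.24). KIF15 was higher in 8 of 9 lines with Rad. DMS53 had the lowest change of 9 of the 10 kinesins, with -0.74 for KIF20A and -0.52 for KIF23.

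The lines differed in how far the kinesins moved. With C+50 the median change of the 10 was -0.65 in DMS53, between -0.38 and -0.17 in H128, DMS153, DMS114, H146, H209, H69 and H526, and -0.07 in H187. H187 had the highest change of 7 of the 10 kinesins with C+50, and DMS53 the lowest of 7. With C+0 the medians were -0.43 in DMS53 and -0.01 in H187, and with A50 -0.56 and 0.01. KIF18A in H187 lay between 8.41 and 8.60 in all 7 conditions. The count of 8 kinesins lowered by C+50 was the same without each of the 9 lines in turn.

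**Figure D3:**
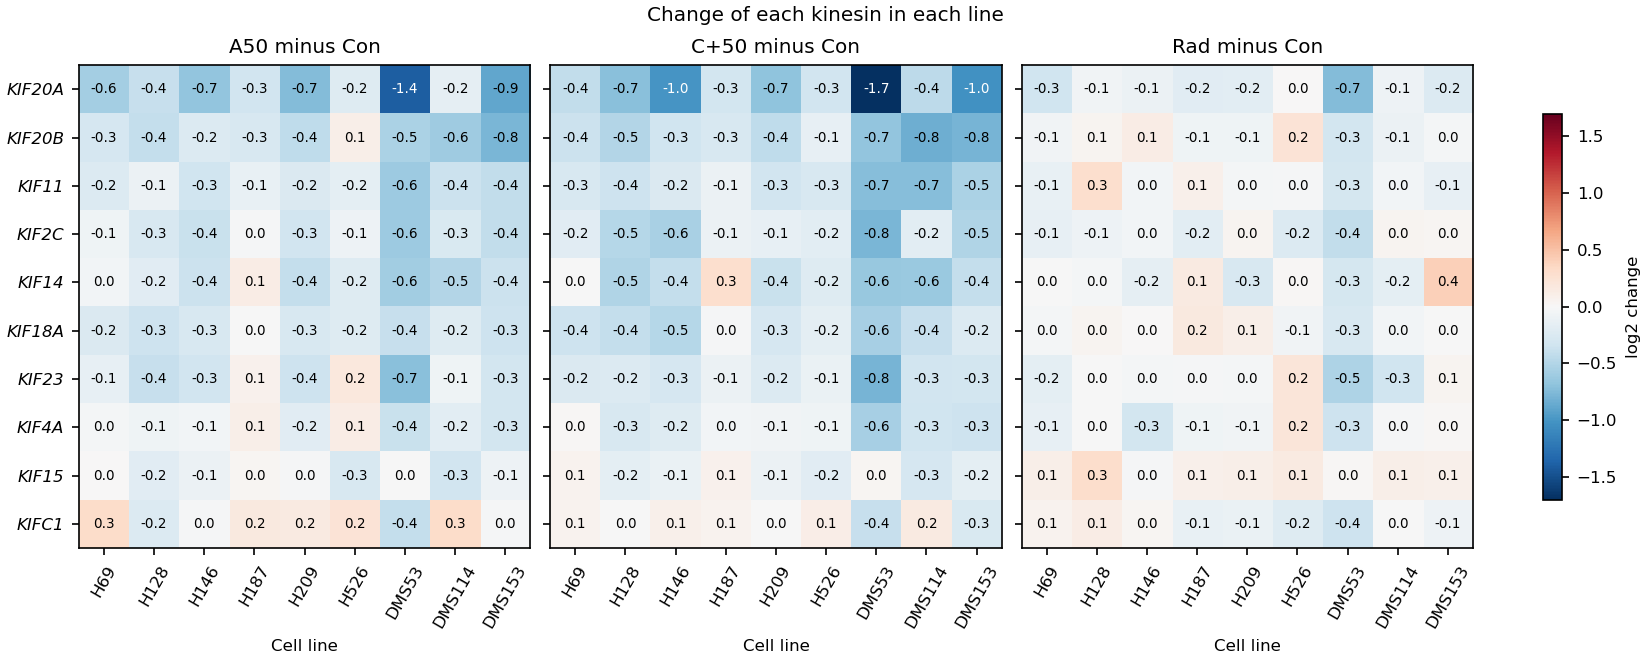
Log2 change against Con (colour, blue lower, red higher) of each kinesin (rows) in each line (columns) with A50, C+50 and Rad, with 1 array pair per cell. The DMS53 column is the bluest at A50 and C+50 (medians -0.56 and -0.65), and the H187 column is near white (0.01 and -0.07).

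Lines named H (n = 6) and DMS (n = 3) were fitted with separate effects, a split made because an earlier look at these data had shown different responses to radiation. With C+50, 7 kinesins fell in H lines (5% of all probes lower) and 8 in DMS lines (6.74% lower), with median changes of -0.23 and -0.48. The difference itself passed for KIF20B and KIF11, 2 of 10 where 0.316% of all probes were called with H lines higher. KIF20B changed by -0.34 (SE 0.05) in H lines and -0.76 (SE 0.07) in DMS lines, a difference of 0.42 (SE 0.08, adjusted p = 0.0073). Its 3 DMS lines were between -0.83 and -0.66 and its 6 H lines between -0.50 and -0.14, so they did not overlap. KIF11 changed by -0.26 (SE 0.05) and -0.66 (SE 0.07), a difference of 0.39 (SE 0.09, adjusted p = 0.019), again without overlap. The lack of overlap rests on the same values as the test, and the share of all probes without overlap was not computed. The difference of the other KIF11 probe did not pass (0.29, adjusted p = 0.079). Without DMS53 only KIF20B was called, as also without H187, and 0 of the 10 were called when arrays were scaled to 1 median (KIF20B adjusted p = 0.12, KIF11 adjusted p = 0.30). KIF20A differed by 0.48 (SE 0.17, adjusted p = 0.22), by 0.16 without DMS53 and by 0.78 without DMS114, where it passed (adjusted p = 0.0071). KIF4A passed as well when H128 was left out. Cisplatin doses ran from 0.4 to 14.5 µM in H lines and from 4.7 to 12.5 µM in DMS lines, and their part in these differences was not tested.

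**Figure D4:**
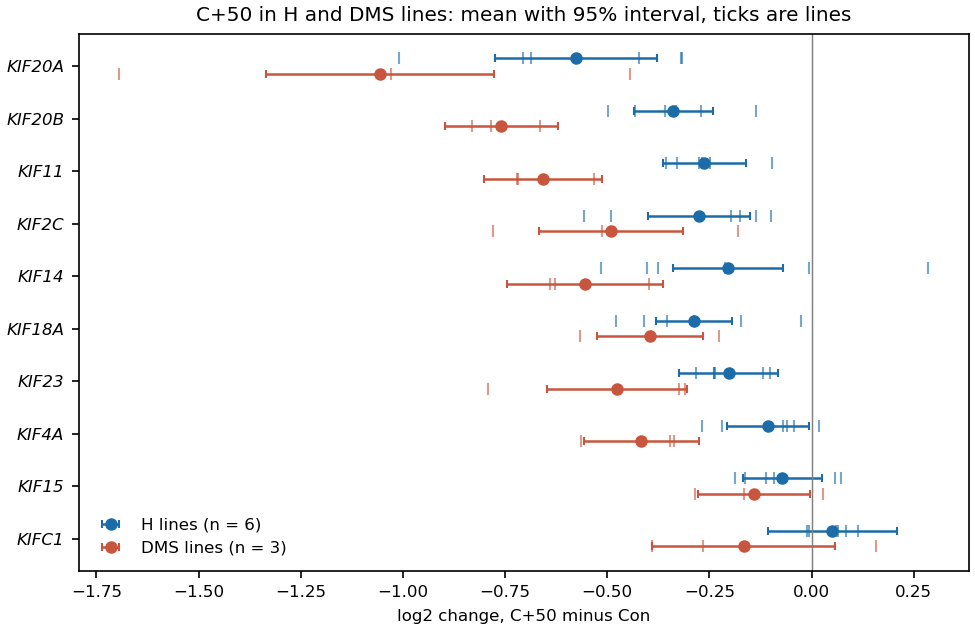
Log2 change with C+50 (x axis) of each kinesin in H lines (blue, n = 6) and DMS lines (red, n = 3), with the fitted mean, its 95% interval and a tick for each line. For KIF20B and KIF11 the red and blue ticks do not overlap.

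Cisplatin alone lowered 8 kinesins in DMS lines (1.49% of all probes lower) and 0 in H lines (0.0195% lower, 0.00326% higher), where 5 had an unadjusted p under 0.05. No difference between the sets passed in limma (lowest adjusted p = 0.26, 7 at an unadjusted p under 0.05), so a response in DMS lines only was not shown. Without DMS53, 4 were called in DMS lines, and 4 also when arrays were scaled to 1 median. A50 lowered 5 in H lines (3.9% of all probes lower, 3.2% higher) and 8 in DMS lines (2.88% lower, 2.58% higher, and 5 kinesins without DMS53). With arrays scaled to 1 median these counts were 9 and 6, so which set had more turned over. In limma 0 differences passed (0.00326% of all probes lower, 0.00977% higher, lowest adjusted p = 0.11, 5 at an unadjusted p under 0.05).

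After radiation, 0 kinesins passed in H lines (1.25% of all probes lower, 4.12% higher), in DMS lines (0.0879% lower, 0.0846% higher) or in their difference (0.606% of all probes with H lines lower, 2.72% higher). Unadjusted, limma gave 1, 4 and 3 of them a p under 0.05. This depended on the scaling. With arrays scaled to 1 median, 5 fell in DMS lines (KIF11, KIF20A, KIF20B, KIF23 and KIF4A, with 7.7% of all probes lower) and 7 differed (20.2% of all probes with H lines higher), while that scaling moved the median difference of all probes from -0.0059 to 0.07. The other KIF11 probe rose in H lines (0.23, SE 0.05, adjusted p = 5.5e-04) and differed from DMS lines by 0.44 (SE 0.08, adjusted p = 2.5e-04), while the brighter probe had 0.02 (adjusted p = 0.89) and 0.18 (adjusted p = 0.33). Without DMS153, KIF23 was called in DMS lines and in the difference. The split into H and DMS lines came from an earlier look at radiation in these same data. The Rad results by set, and the shares of all probes beside them, are therefore not independent of that choice.

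The lines were also split by a mark in the study's supplement for potentiation of a chemotherapy agent by veliparib, which need not have been cisplatin, into the potentiated lines H146, H187, H209, H526 and DMS153 (n = 5) and the other lines H69, H128, DMS53 and DMS114 (n = 4). With C+50, 6 kinesins fell in the potentiated lines (4.74% of all probes lower) and 8 in the other lines (5.39% lower), with medians of -0.23 and -0.42. C+0 lowered 0 and 6 (0.0163% and 0.407% of all probes lower). In the potentiated lines 4 of the 10 had an unadjusted p under 0.05 with C+0, as did 2146 of all 30716 probes. A50 lowered 5 and 7 (3.67% and 2.11% of all probes lower, 2.88% and 1.74% higher), and 8 and 6 when arrays were scaled to 1 median. None of the differences between the sets passed for any kinesin in limma, at adjusted p of 0.57 or more. For C+50, C+0 and A50 alike, 0% of all probes passed in either direction. These differences therefore could not set the kinesins apart from other genes. At an unadjusted p under 0.05 were 2 kinesins for C+50, 4 for C+0 and 0 for A50. Over all 30716 probes these counts were 2205, 1571 and 1534. The difference for KIF11 with C+50 was 0.22 (95% interval 0.03 to 0.42; the other probe 0.12) and that for KIF20A 0.14 (-0.20 to 0.49). In the other lines, leaving out DMS53 took the count from 6 to 1 for C+0 and from 7 to 2 for A50, and leaving out H128 or DMS114 took that for C+0 to 2. In the potentiated lines, leaving out DMS153 took the count for A50 from 5 to 3.

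Within lines, most kinesins moved together over the conditions. After each line's mean was removed, Pearson's r of pairs over 63 arrays had a median of 0.68 and ran from -0.16 (KIF15 with KIFC1) to 0.86 (KIF20A with KIF2C). The arrays share treatments and lines, so r describes the treatment response as well as the remaining scatter. The highest r of KIFC1 with another kinesin was 0.35 (KIF23). Between the means of the 9 lines the median r was 0.22 and the range -0.49 to 0.76, so that a line high in 1 kinesin was not in general high in the others. The probe pair of KIF11 had r = 0.79 within lines and that of KIF23 r = 0.43, where the dimmer KIF23 probe averaged 7.10.

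**Figure D5:**
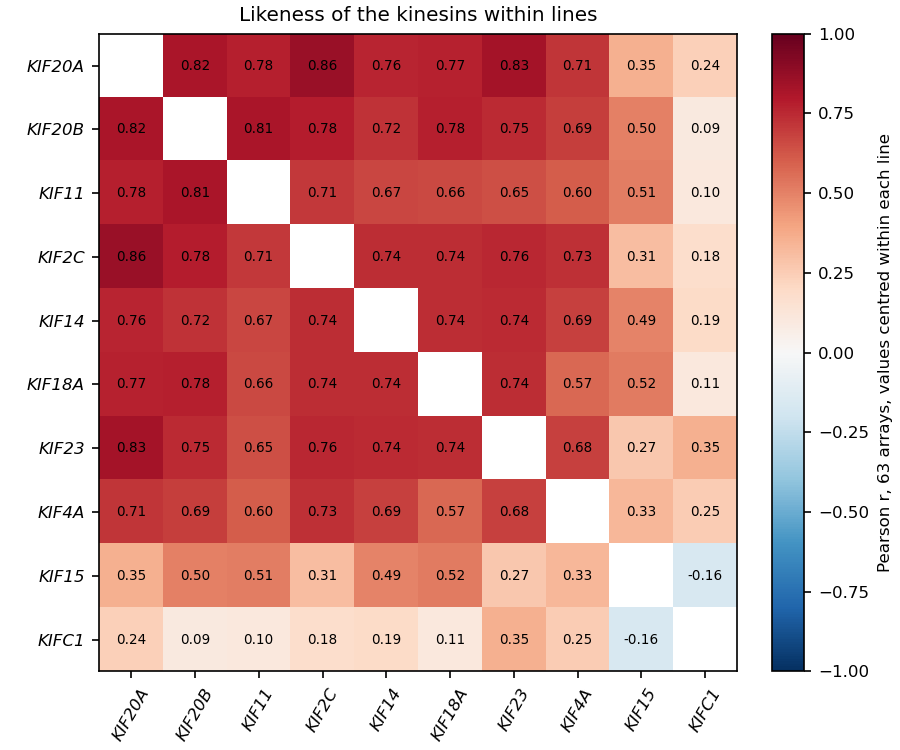
Pearson r between kinesins over 63 arrays after each line's mean was removed, as colour and number (rows and columns are kinesins). KIF20A, KIF20B, KIF11, KIF2C, KIF14, KIF18A, KIF23 and KIF4A form a block of high r, while the highest r of KIFC1 is 0.35.

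The genes most like the mean of the 10 kinesins by the same measure were CENPE (r = 0.94), AURKA (0.93), CENPA (0.92), CLCC1 (0.92), TOP2A (0.91), GPSM2 (0.91), CKAP5 (0.90) and FAM83D (0.90), each over 63 arrays. Their changes with C+50 ran from -0.89 (CENPA) to -0.24 (CKAP5), and all 8 were called, where 9.1% of all probes were lower. They were picked by likeness to the kinesins over these same arrays, so their fall is not independent of that choice.

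Among other kinesins of cell division, 4 of 7 were measured, and 1 was called with C+50 (9.1% of all probes lower, 8.12% higher). This was CENPE, the kinetochore motor that moves chromosomes to the spindle equator, at -0.63 (SE 0.07) and lower in 9 of 9 lines. The list median was -0.05, and KIF22 (-0.07), KIF2A (-0.04) and KIF24 (0.08) were not called. Of 17 measured partners of mitotic kinesins, which anchor, phosphorylate or carry them, 15 fell and 0 rose with C+50 (median -0.39), where 9.1% of all probes were lower, and 14 fell without H128. AURKA, a kinase of the spindle poles, fell by 0.67 on the log2 scale, FAM83D, which recruits a kinase to the spindle, by 0.61, the cyclin CCNB2 by 0.58 and the spindle protein HMMR by 0.56. PRC1 (-0.09, adjusted p = 0.13) and BIRC5 (0.05, adjusted p = 0.53) did not pass. A50 lowered 14 partners (6.22% of all probes), C+0 14 (0.921% of all probes, and 9 partners without H128) and C+5 16 (1.12% of all probes), and Rad called 0 in limma (6 at an unadjusted p under 0.05). KIF20B, CENPE, CENPA, AURKA, FAM83D and HMMR belong to a panel that the study chose on these arrays, so their direction is not independent evidence.

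Of 30 measured genes of kinesin transport, which include an adaptor and light chains besides motors, 4 fell and 1 rose with C+50. Without H128 these counts were 2 and 1, and the list median over all lines was -0.02. Over all probes 9.1% were lower and 8.12% higher, a share near that of the list. KIFAP3, the cargo adaptor of kinesin-2, changed by -0.20 (SE 0.03) and KLC1, a light chain, by -0.10 (SE 0.03). Among motors KIF13B changed by -0.16 (SE 0.04), KIF21A by -0.10 (SE 0.04), and KIFC2 rose by 0.27 (SE 0.07). Of 13 genes of the G1/S transition, 8 rose and 0 fell with C+50 (median 0.16), where 8.12% of all probes were higher, and 6 rose without H128. With C+0, 5 rose (0.339% of all probes higher), and 2 without H128.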

How the data were processed

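RNA of 9 SCLC lines in 7 conditions was hybridised to 63 Illumina HT-12 v4 BeadChip arrays, and the submitters' processing notes name GenomeStudio 2010.3. The authors deposited intensity values on a linear scale, once unnormalized and once quantile normalized. The sources used here do not say if background was removed first. The deposited detection p-value of each probe is that of the authors' software. The authors' quantile-normalized values differed from those computed here by at most 0.015 (log2).

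Intensities before normalization were quantile normalized in limma 3.58.1 (R 4.3.3) and log2 transformed, without background correction. A probe entered the fits if 4 or more of the 63 arrays detected it (p below 0.05), which left 30716 of 47217. Symbols came from the platform annotation. Of the kept probes 21620 had 1 symbol, 4 several and 9092 none used here. Conditions came from the labels, and the sets of potentiated lines from a mark in the study's supplement. Effects were fitted with lmFit and eBayes with the line as a fixed block, over all 9 lines or by set of lines, and p-values were adjusted by Benjamini-Hochberg over all kept probes. Intervals are 95% intervals from the moderated standard error. Same-numbered arrays are the same cell line, and their deviations from the condition means were alike (r from 0.928 to 0.982 over 189 pairs, median -0.13 between lines). No 2 arrays held identical values. Nothing states that arrays of a line came from separate cultures. The p-values measure how values vary among these arrays once each line's own level is removed, pooled over the 7 conditions. Precision is limited by how many arrays there are. The fits were tested on simulated data.

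The 10 kinesins and the gene lists were chosen with earlier results of these data known. From each other kinesin or partner list, the 4 genes with the largest change with C+50 among those called were named. The 8 genes most like the kinesins were also named. PRC1 and BIRC5 were named because they were the exceptions in their list, and KLC1 because it was the remaining transport gene called. Promoters came from RefSeq. Other settings were the authors' values, background correction by neqc (offset 16), median scaling, no block for the line, only the compared arrays, no moderation, averaging a gene's probes, and each line left out. Gene lists were also fitted without H128, a choice made after seeing the data. The filter was dropped or made stricter (32 or more arrays, detection p below 0.01). The methods' threshold asked for a fold of 1.5 or more and an unadjusted p below 0.01, and DMS114 replaced DMS153 among potentiated lines in another. The drawings used matplotlib 3.10.9 (Python 3.11.15).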

Additional observations from a re-analysis of the deposited data

Results flagged for a closer look

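In 70 sets of 9 levels and 60 sets of 9 changes, the gap of the most extreme line to the next was compared with the whole range (limit 0.493). This flagged 1 and 6 sets, where chance flags about 1 in 20. The KIF2C level of H209 with A5 was 7.93, apart from the next line at 8.64. DMS53 stood apart with a change of -1.50 in KIF20A with C+5 (next -0.75), -0.74 in KIF20A with Rad (next -0.34), -0.28 in KIF18A with Rad (next -0.05) and -0.79 in KIF23 with C+50 (next -0.32). H187 stood apart with a change of -0.0070 in KIF18A with A50 (next -0.22), and H209 with 0.14 in KIF15 with A5 (next 0.01).

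The difference between H and DMS lines passed the test with C+50 for KIF20B (0.42) and for the brighter probe of KIF11 (0.39), and with Rad for the other KIF11 probe (0.44). The probes of KIF11 differed in their calls in both comparisons, and their part in the result was not tested. The split itself was chosen from radiation responses in these data, so the Rad result is not independent of that choice.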

How the results depend on the processing

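The fall of KIF20A, KIF20B, KIF14 and KIF18A with C+50, A50, C+0 and C+5 kept its direction and its call under every other fit run except the one without the block for cell line. Its size varied: over the other settings the change with C+50 ran from -0.86 to -0.62 for KIF20A and from -0.52 to -0.29 for KIF18A. With no replicate block, which sets each treated array against the whole spread of the lines, 0 kinesins were called in every comparison that called any. The methods' threshold called 1 with A50 (0.0195% of all probes lower, 0.00977% higher) and 1 with C+50 (0.0651% lower, 0.0163% higher). It called 0 with C+0 (0% of all probes lower, 0% higher) and 0 with C+5 (0.00326% lower, 0% higher). Median scaling called 9 with A50, 6 with A50 in other lines and in DMS lines, 4 with C+5, 0 for C+5 minus A5, 1 for the departure from the sum, 8 with A50 in potentiated lines, 3 with C+0 in other lines, 9 with A50 in H lines, 1 with C+0 in H lines, 4 with C+0 in DMS lines, 0 for the C+50 difference of H and DMS lines, and with Rad 1 in H lines, 5 in DMS lines and 7 for their difference. The ordinary linear model called 1 for C+5 minus A5, and averaging the probes of each gene 1 for the Rad difference. The causes were not tested. Leaving out each line gave 8 for C+50, 7 to 8 for A50, 4 to 6 for C+0, 5 to 7 for C+5, 4 to 7 for A50 minus A5, 2 to 4 for C+50 minus C+0, 0 to 5 for C+5 minus A5, 3 to 6 and 2 to 7 for A50 in potentiated and other lines, 1 to 6 for C+0 in other lines, 4 to 6 and 7 to 8 for C+50 in potentiated and other lines, 4 to 6 and 5 to 8 for A50 in H and DMS lines, 0 to 1 and 4 to 8 for C+0 in H and DMS lines, 5 to 7 and 8 for C+50 in H and DMS lines, 1 to 3 for their difference (1 without H187 or DMS53), and 0 to 1 for Rad in DMS lines and for the Rad difference. KIFC1 turned from 0.055 to -0.070 with A50 under median scaling, and from -0.022 with C+50 to 0.024 without DMS53 and 0.0086 without DMS153 (lowest -0.044, without DMS114). No fit with the BeadChip as a block could be made, because the headers do not name it.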
